A study of Homo sapiens with 6 samples.

Results

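The 83 genes described here encode proteins of the cytosolic ribosome and relatives of these proteins. They were taken from the 25277 gene rows of an expression table by symbol: the RPL and RPS names with a number, RPLP0, RPLP1, RPLP2 and RPSA, and 6 paralogs with L in the name (RPL36AL, RPL22L1, RPL26L1, RPL39L, RPL7L1 and RPS27L). Pseudogenes and RPS4Y1 were left out. There were 51 genes of the large subunit and 32 of the small subunit, of which 77 encode standard proteins and 6 are the paralogs. RNA-seq was done on Jeko and Rec-1, which are established human lines derived from mantle cell lymphoma, a malignancy of B cells. All libraries came from stable lines with Cas9 and a tet-on vector, and all were given doxycycline for 48 h. Each line contributed 1 control with an empty vector and 2 libraries with an sgRNA against the nuclear receptor gene NR4A1, called sgRNA 1 and sgRNA 2 below. The labels do not say whether a stable line is 1 clone, and nothing in them says that the guides of a line are separate cultures beyond carrying different sgRNAs, so p-values measure only the spread between these libraries.

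The cytosolic ribosome holds a single copy of nearly every ribosomal protein, and its large and small subunits are assembled in the nucleolus and joined on mRNA. The genes are therefore usually transcribed in step and at high levels in dividing cells. Most of their mRNAs begin with a 5′ terminal oligopyrimidine (TOP) tract, a C followed by a run of pyrimidines, through which translation is tied to mTOR signalling. A few proteins have paralogs that can take the place of the standard protein in some tissues or states.

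To show what the group shares in sequence, transcription starts were read from the RefSeq promoter table (GRCh38.p14), which held 67 of the 83 genes. A TOP start was counted where the first transcribed base was C and stood in a run of at least 5 pyrimidines. Of 62 standard genes listed there, 46 had one (74.2%), against 584 of 7977 other protein-coding genes whose mean reached 1 FPKM (7.32%). Among the paralogs 1 of 5 had one, RPL22L1. A match is a description of these letters and not of regulation. The lines below give 15 bases before and 15 from the start for the most stable gene (RPLP0), for the genes that differed between the lines, and for paralogs beside a standard gene. Capitals mark the pyrimidine run that opens with C at the start.
RPLP0: gcgcgggcgcgaggcCCTTCTCTCgccagg
RPS27: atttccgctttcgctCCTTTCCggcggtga
RPL38: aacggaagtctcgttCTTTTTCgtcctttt
RPS14: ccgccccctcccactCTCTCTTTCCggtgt
RPS25: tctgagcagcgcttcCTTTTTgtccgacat
RPS26: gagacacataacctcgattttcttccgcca
RPL39: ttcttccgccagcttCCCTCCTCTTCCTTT
RPL22L1: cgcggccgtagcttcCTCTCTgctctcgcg
RPL36AL: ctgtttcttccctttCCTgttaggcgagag
RPL7L1: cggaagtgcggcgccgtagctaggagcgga
RPS27L: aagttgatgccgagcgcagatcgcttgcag

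Matched to GRCh37, the build that the submitters' processing notes name as hg19, the RPS27 window lies at chr1:153963223-153963252 on the plus strand and the RPS26 window at chr12:56435687-56435716 on the plus strand. The RPL22L1 window lies at chr3:170587970-170587999 on the minus strand and the RPL7L1 window at chr6:42847339-42847368 on the plus strand. The last 15 bases of each window are the 5′ end of the RefSeq transcript. In GENCODE 44 the starts of RPS27 and RPL7L1 are also the starts of the gene, and those of RPS26 and RPL22L1 lie inside it. RPS26, RPL7L1, RPS27L and RPL26L1 had no C-opened run at these starts, and that of RPL36AL was 3 bases long.

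Paralogs differ in how much sequence they share with the standard gene, which bears on how reads can be assigned. RPL39L and RPL39 are shown because RPL39L has a single coding exon and shares 94.8% of coding bases with RPL39, with 8 of 153 differing, which are in capitals. RPL39L is coded at chr3:186838936-186839088 on the minus strand, RPL39 in 3 exons within chrX:118920650-118925539 on the minus strand (GRCh37).
RPL39L: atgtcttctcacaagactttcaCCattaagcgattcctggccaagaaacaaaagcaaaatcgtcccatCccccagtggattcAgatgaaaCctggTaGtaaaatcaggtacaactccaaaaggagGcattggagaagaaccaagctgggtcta
RPL39: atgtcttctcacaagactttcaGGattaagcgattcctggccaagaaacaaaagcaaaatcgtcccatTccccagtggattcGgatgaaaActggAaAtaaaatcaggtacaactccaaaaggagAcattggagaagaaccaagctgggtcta
RPS27L and RPS27 stand for a more distant pair, at 77.8% of coding bases and 56 of 252 differing. Both have 4 coding exons, RPS27L within chr15:63446234-63449604 on the minus strand and RPS27 within chr1:153963273-153964566 on the plus strand.
RPS27L: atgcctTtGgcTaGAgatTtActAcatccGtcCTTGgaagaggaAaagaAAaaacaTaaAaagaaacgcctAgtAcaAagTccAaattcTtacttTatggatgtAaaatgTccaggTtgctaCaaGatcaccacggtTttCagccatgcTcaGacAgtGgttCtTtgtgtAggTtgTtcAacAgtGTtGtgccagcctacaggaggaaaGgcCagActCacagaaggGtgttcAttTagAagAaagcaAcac
RPS27: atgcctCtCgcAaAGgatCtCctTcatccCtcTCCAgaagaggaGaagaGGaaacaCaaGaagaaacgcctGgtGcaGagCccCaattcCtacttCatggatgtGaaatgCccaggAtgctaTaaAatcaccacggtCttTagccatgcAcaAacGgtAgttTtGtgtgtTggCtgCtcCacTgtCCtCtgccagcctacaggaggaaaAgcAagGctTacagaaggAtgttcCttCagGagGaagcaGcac
The other pairs shared 89.9% (RPL36AL with RPL36A), 84.1% (RPL26L1 with RPL26), 65.4% (RPL22L1 with RPL22) and 53.6% (RPL7L1 with RPL7) of aligned coding bases.

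The libraries do not all follow their labels, and this touches every comparison of sgRNA with control and of the lines. Cyclin D1 (CCND1), the defining marker of mantle cell lymphoma, lay between 442 and 815 FPKM in the 3 Jeko libraries, at 495 in the library labelled Rec-1 control and at 0.696 and 0.592 in those labelled Rec-1 sgRNA 1 and sgRNA 2. The other markers listed for this lymphoma, SOX11 and CD5, did not show so sharp a split. SOX11 was also lowest in the Rec-1 sgRNA libraries but ranged only from 2.45 (Rec-1 sgRNA 2) to 11.1 FPKM (Jeko sgRNA 1). CD5 was at or near 0 in every library. NR4A1 itself was between 3.89 and 5.99 FPKM in Jeko, where both guides were below the control, and between 11.6 and 27.4 in Rec-1, where neither was. All 6 B-cell markers were present in every library. The T-cell marker CD3D was at 66.3 and 95.3 FPKM in the Rec-1 sgRNA libraries and under 0.5 in the others, and CD3G (30.5 and 18.7) and CD3E (5.19 and 5.80) were also highest there, against at most 4.96 and 0.531 elsewhere. CD2 was at or near 0 throughout. The 4 T-cell markers together came to 102 and 120 FPKM in these libraries and to between 2.11 and 5.43 in the others. Over 10322 protein-coding genes the log2 values of the Rec-1 control correlated at r = 0.988 with the Jeko control and at 0.805 and 0.811 with the libraries of its own labelled line (correlations across genes of single libraries, given as a description). The Jeko control was also closer to the Rec-1 control than to Jeko sgRNA 1 and 2, at r = 0.968 and 0.963. RPS4Y1, a ribosomal protein gene left out by the naming rule, was above 0 in both controls and listed at 0 in all 4 sgRNA libraries. All results below are therefore differences between libraries as labelled. The comparison of the lines uses sgRNA libraries alone, which include the 2 Rec-1 libraries with little CCND1, so a line difference means only a difference between the libraries labelled Rec-1 sgRNA and Jeko sgRNA. The part of these library differences in the results below was not tested.

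Ribosomal protein genes were among the most abundant transcripts of every library. Values are FPKM, mapped fragments scaled by transcript length and library size. Between 63 and 66 of the 100 highest genes of each library were ribosomal protein genes, and 65 or 66 of the 83 reached 1000 FPKM. They held 29.4% of all FPKM in the Jeko control, 24.8% in Jeko sgRNA 1, 27.2% in Jeko sgRNA 2, 26.7% in the Rec-1 control, 29.4% in Rec-1 sgRNA 1 and 25.8% in Rec-1 sgRNA 2. The groups overlapped. The microRNA rows MIR6723 and MIR4461 took between 21.6% and 36.9% of the same sum. Of the FPKM of protein-coding genes, ribosomal protein genes held between 42.6% (Rec-1 sgRNA 2) and 47.4% (Jeko sgRNA 2). The share of all FPKM was 1.29 percentage points below the own-line control on average over the 4 sgRNA libraries, a difference of -1.29 (SD of the 4 differences 3.06; two-sided exact permutation test over 9 arrangements within lines, p = 0.556, smallest possible 0.111). In bulk RNA, fewer cells of a type and less RNA per cell cannot be told apart.

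The order of the genes was much the same in all libraries. Over the log2 values of any pair of libraries r was between 0.957 and 0.998 (across genes, as a description). These values include the low paralogs, and over the 75 standard genes measured r was between 0.924 and 0.997. The highest were RPL41, whose protein is a very short basic peptide of the large subunit, with a mean of 16974 FPKM, and RPS27, a zinc-finger protein of the small subunit, with 16091. RPL37A followed at 8178, RPS12 at 7307 and RPL26 at 6473. The lowest with a measured value were the paralogs RPL22L1 (30.0), RPL26L1 (47.4) and RPS27L (48.6), and among the standard genes RPL21 (197), RPS26 (410) and RPL13 (450). RPS18 was listed at 0 in all 6 libraries, as was EEF1A1, a translation factor that every cell uses, so these zeros are values of the table and say nothing of expression. Of the 83 genes 81 had a mean of at least 1 FPKM and entered the tests. The small subunit held between 41.7% and 43.9% of the group's FPKM, and the paralogs between 0.198% and 0.335%.

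**Figure D1:**
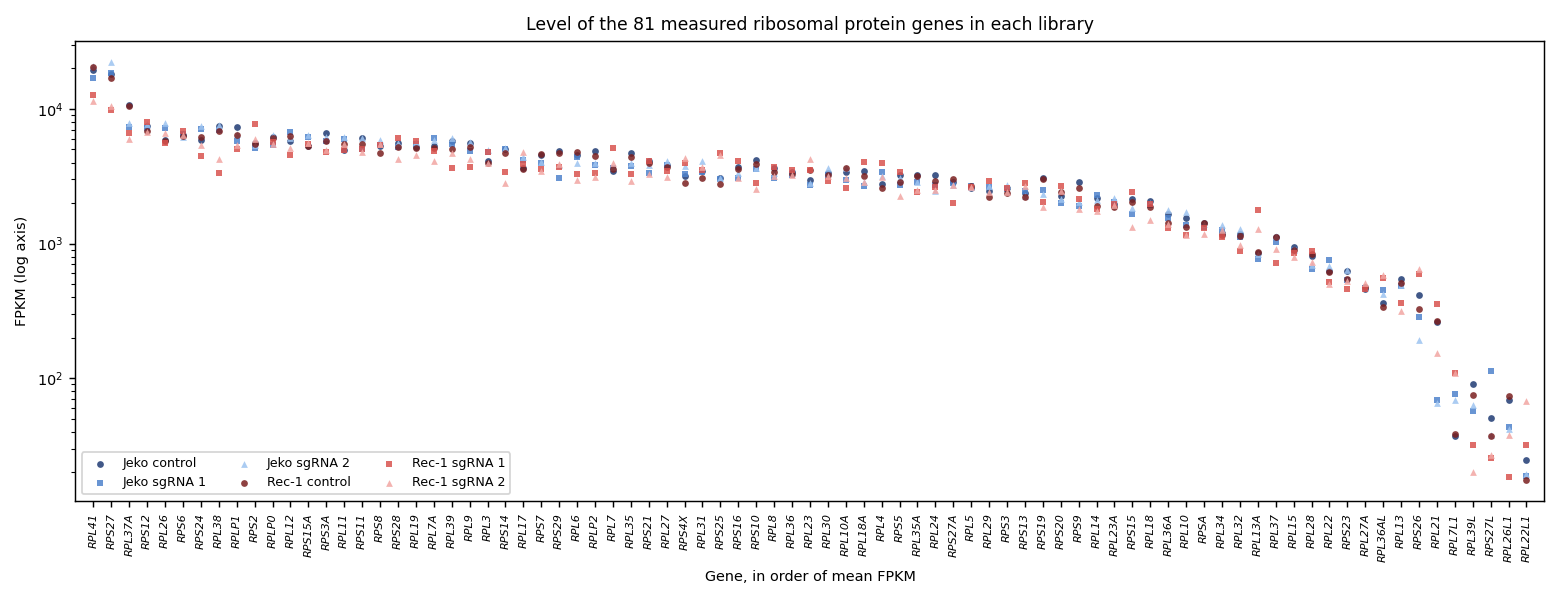
FPKM (log axis) of the 81 measured ribosomal protein genes, ordered by mean, with a point for each of the 6 libraries. Most genes lie above 1000 FPKM with closely spaced points, while RPS26, RPL21 and the paralogs at the right are lower and spread more widely.

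A small set of genes hardly varied. RPLP0, the stalk protein that anchors the acidic P proteins and is often used as a reference gene, was at 6239 FPKM in the control of Jeko, 5358 and 6457 in Jeko sgRNA 1 and 2, 6062 in the control of Rec-1, then 5670 and 5461 in Rec-1 sgRNA 1 and 2. After each library was centred on its median standard ribosomal protein gene, its SD over the 6 libraries was 0.053 on the log2 scale, the lowest of the 75 standard genes measured. RPL36, RPSA, RPS3 and RPL15 came next. RPL5, which with RPL11 and 5S rRNA can bind MDM2 and stabilise p53, stayed between 2587 and 2668 FPKM. RPL11 was between 4941 and 6230 and was highest in Jeko sgRNA 1 and 2. RPS6, the substrate of S6 kinases downstream of mTOR, was between 6237 and 6917. The SD was largest for RPL21 (1.04), RPS26 (0.710), RPL13A (0.492), RPL38 (0.473) and RPS27 (0.443).

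Relative to the own-line control, most genes of the group differed little and by similar amounts. Differences are given on the scale of log2(FPKM + 1), where 1 is 2-fold. The median over the 81 genes was -0.08 for Jeko sgRNA 1, -0.0030 for Jeko sgRNA 2, -0.07 for Rec-1 sgRNA 1 and -0.18 for Rec-1 sgRNA 2. Within 1.5-fold of that median lay 78 and 77 of the 81 genes in Jeko sgRNA 1 and 2, and 69 and 68 in Rec-1 sgRNA 1 and 2. For all protein-coding genes tested, the share within 1.5-fold of their own median was 79.6% and 75.6% for the Jeko guides and 48.9% and 50.8% for those of Rec-1, where it was 96.3%, 95.1%, 85.2% and 84.0% for the ribosomal protein genes. The SD of the mean differences of both guides was 0.330 in Jeko and 0.480 in Rec-1, against 0.469 and 1.19 over all coding genes. The comparison was repeated at high abundance. Of genes whose mean reached 1000 FPKM, the 67 ribosomal protein genes had an SD of 0.192 in Jeko and 0.340 in Rec-1, and 25 other coding genes had 0.356 and 1.23. Without the 6 paralogs the SDs were 0.300 and 0.349. The libraries labelled Jeko control and Rec-1 control were closest of all, with an SD of 0.118 and 81 of 81 genes within 1.5-fold of the median.

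**Figure D2:**
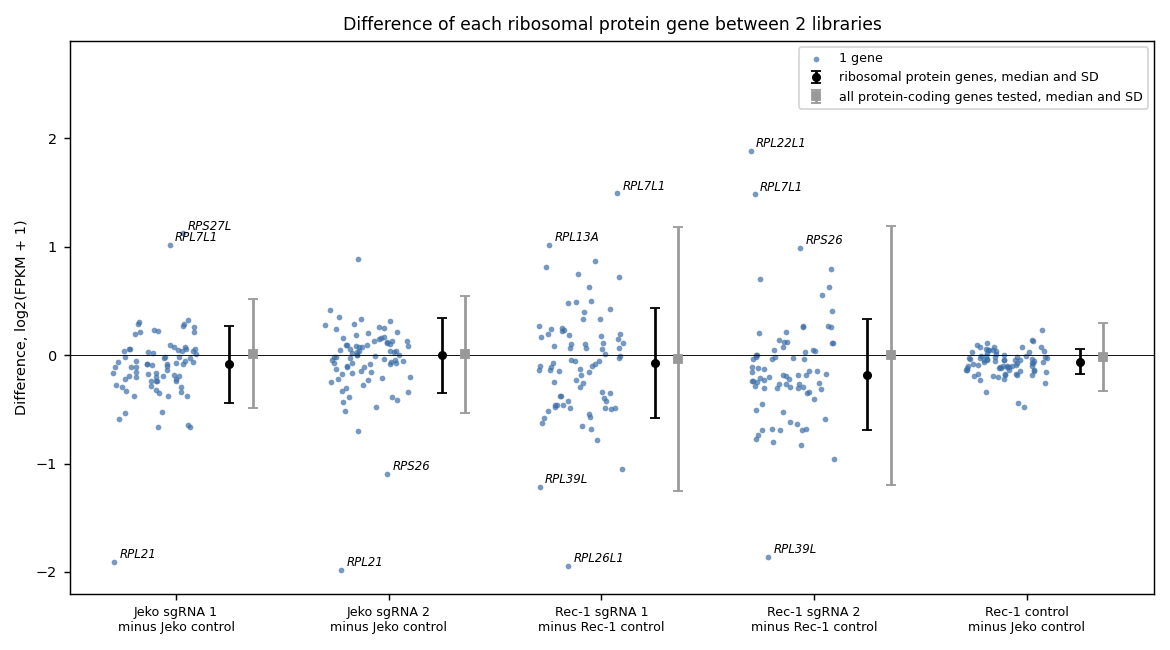
Difference in log2(FPKM + 1) of each of the 81 genes between a library and its control, and between both controls, with the median and SD of these genes (black) and of all protein-coding genes tested (grey). Genes at least 2-fold from the group's median are named. The SD of these genes is smaller than that of all coding genes in all 5 columns, and smallest between the controls, at 0.118.

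No ribosomal protein gene passed the test for an effect of the sgRNA over both lines. In a limma fit of all 11400 genes whose mean reached 1 FPKM, with line as a covariate, 0 of 81 had a Benjamini-Hochberg adjusted p under 0.05, where 0.246% of all genes tested did. At an unadjusted p under 0.05 there were 11 of 81, of which 2 were higher, and 21.1% of all genes. The group's median was -0.09 (between -0.12 and -0.04 with 1 library left out) against 0.01 for all genes, with 28 genes higher and 53 lower. This sign depended on whether values were adjusted for transcript length: after an adjustment fitted over all protein-coding genes tested, the median was 0.05. The lowest adjusted p (limma, 0.154) was that of RPL7L1, a nucleolar relative of RPL7, at a log2 difference of 1.22 (SE 0.20). Without the Jeko control, where the contrast rests on Rec-1 alone, RPL7L1 passed (1.49, limma adjusted p = 0.0193) and was the only one of the group to do so (1 of 81, 1.23%), where 19.1% of all genes passed in that fit.

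The genes with unadjusted p under 0.05 other than RPL7L1 included RPL37A, a zinc-finger protein of the large subunit. It was at 10652 FPKM in the Jeko control, 7336 in Jeko sgRNA 1, 7871 in Jeko sgRNA 2, 10498 in the Rec-1 control, 6682 in Rec-1 sgRNA 1 and 6026 in Rec-1 sgRNA 2. All 4 sgRNA libraries lay below both controls, a log2 difference of -0.61 (SE 0.12, limma adjusted p = 0.169). RPS19, a small-subunit protein mutated in Diamond-Blackfan anaemia, was at 3047, 2488, 2336, 3019, 2035 and 1867 FPKM in the same order of libraries. Its controls were also above all sgRNA libraries, with a difference of -0.48 (SE 0.14, limma adjusted p = 0.193). The stalk proteins RPLP0, RPLP1 and RPLP2, which recruit translation factors, had differences of -0.10, -0.27 and -0.40, and none of the 3 passed.

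Short transcripts outside the group were lower in the Jeko sgRNA libraries than in their control. The 1054 other coding genes whose lengths fall in the interquartile range of the ribosomal protein genes (628.5 to 1257 nt) had a median difference from the Jeko control of -0.37, where the ribosomal protein genes had -0.04. In Rec-1 the corresponding medians were -0.24 and -0.12. Over all 10322 coding genes tested, length and the Jeko difference had a Spearman correlation of 0.556, and over the 75 standard genes of the group 0.119 (across genes, as a description). The part of length in the group's values was not tested beyond the length-adjusted fit.

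Within each line the control is a single library, so genes were counted only where both guides differed from it by 2-fold or more and with the same sign, without a test. In Jeko 1 of 81 did so, RPL21, which was lower, where 3.04% of all genes tested did. In Rec-1 there were 2 of 81, RPL39L lower and RPL7L1 higher, where the background was 23.3% of all genes. The genes farthest below the group's median in Jeko were RPL21 (-1.94), RPS26 (-0.81) and RPL26L1 (-0.67), and those farthest above were RPL7L1 (0.95), RPL26 and RPS27L (both 0.36), each given as its own mean difference from the control. In Rec-1 the farthest below were RPL39L (-1.54), RPL26L1 (-1.45) and RPL38 (-0.87), and the farthest above RPL7L1 (1.49), RPL22L1 (1.35) and RPS26 (0.93). The Jeko value of RPS27L is a mean of guides with opposite signs (1.13 and -0.41) and lies within 1.5-fold of the group's median.

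RPL21 was the most extreme value, and its row cannot be read alone. RPL21, a large-subunit protein with 133 pseudogenes by name in the annotation, was at 263 FPKM in the Jeko control, 69.5 in Jeko sgRNA 1, 66.0 in Jeko sgRNA 2, 267 in the Rec-1 control, 359 in Rec-1 sgRNA 1 and 155 in Rec-1 sgRNA 2. The table also has a row for RPL21P28, a processed pseudogene, which lay between 6227 and 6986 FPKM. With its pseudogene rows added, RPL21 came to 7249, 6405, 6293, 7230, 6767 and 7075 FPKM in the same order, close to the other abundant members. The Jeko difference of the sum was -0.19, and 0 genes of the group then passed the 2-fold count in Jeko. RPL13A, a large-subunit protein that also hosts small nucleolar RNAs, had the same form. Its own row was at 853, 767, 838, 870, 1766 and 1281 FPKM, and RPL13AP5 was between 4413 and 5485. The sums were 6337, 5182, 5744, 6236, 7256 and 5992 FPKM, and the difference between the lines was 0.91 on the log2 scale for the row alone and 0.27 for the sum. These were the only pseudogene rows of 30 with a mean of at least 100 FPKM. Values of RPL21 and RPL13A are uncertain to the extent that reads can be placed on either copy.

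**Figure D3:**
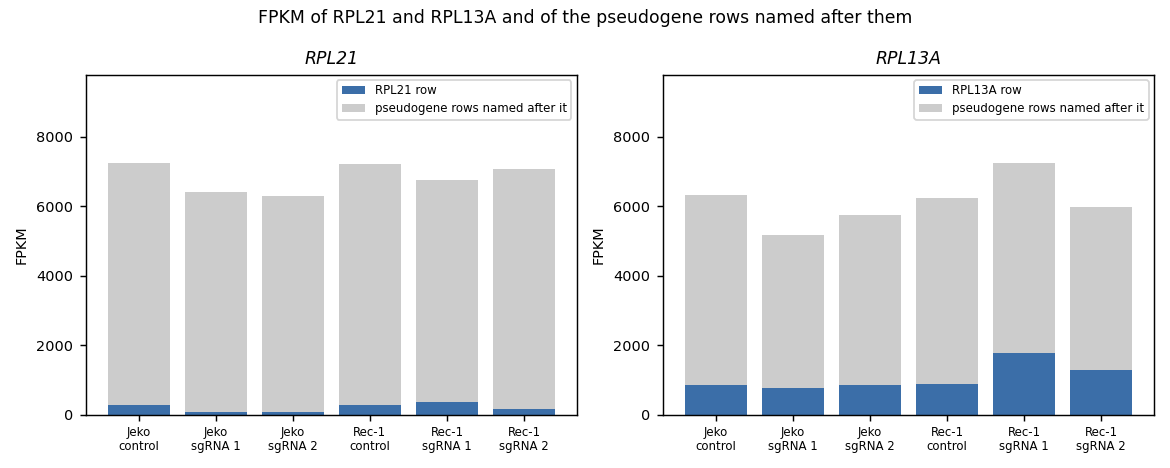
FPKM of RPL21 (left) and RPL13A (right) in each library, stacked with the summed rows of the pseudogenes named after them. The gene's own row is a small part of each bar, on average 2.88% for RPL21 and 17.3% for RPL13A, and the sums vary less than the rows alone.

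Between the lines, the comparison of the 2 Rec-1 with the 2 Jeko sgRNA libraries found 6 of 81 ribosomal protein genes past the threshold (limma, adjusted p under 0.05), or 7.41%, where 25.9% of all genes tested passed. Of these, 4 were lower in Rec-1 (RPS27, RPL38, RPS14 and RPL39L) and 2 higher (RPS26 and RPS25). The genes lie on chromosome 1 from 153963238 to 153964631 (RPS27), chromosome 17 from 72199721 to 72206794 (RPL38), chromosome 5 from 149822198 to 149829302 (RPS14), chromosome 3 from 186838736 to 186898696 (RPL39L), chromosome 12 from 56435135 to 56438481 (RPS26) and chromosome 11 from 118886422 to 118889401 (RPS25), all protein-coding (GRCh37). The group's median was -0.15, with 27 genes higher and 54 lower, and that of all genes -0.03. The median ranged from -0.21 to -0.09 with 1 library left out. The count rests on few libraries: it was 0 or 1 without any single sgRNA library, where between 7.04% and 8.30% of all genes passed, and none of the 6 genes was called in those fits. After adjustment for length it was 21 (3 higher, 18 lower), or 25.9%, against 33.6% of all genes, with a median of -0.29. With the guide number as a block it was 2, RPS26 and RPL21, both higher, so that RPS25 and all 4 lower genes were lost.

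RPS27 was at 18105 FPKM in the control of Jeko, 18625 and 22453 in Jeko sgRNA 1 and 2, 16927 in the control of Rec-1, then 9854 and 10585 in Rec-1 sgRNA 1 and 2. It fell by 1.00 on the log2 scale between the lines (SE 0.15, limma adjusted p = 0.0180), and the Rec-1 control lay with the Jeko libraries. RPL38, a short protein of the large subunit known for its part in the translation of homeobox mRNAs, was at 7421, 7025, 7555, 6908, 3335 and 4279 FPKM in the same order. The Rec-1 sgRNA libraries were again the low ones, with a line difference of -0.95 (SE 0.18, limma adjusted p = 0.0316). RPS14, whose loss on chromosome 5q underlies the anaemia of that syndrome, was at 5057, 5081, 5162, 4699, 3420 and 2817 FPKM. It differed by -0.72 (SE 0.16, limma adjusted p = 0.0436).

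RPS26, a small-subunit protein at the mRNA exit channel, was at 412 FPKM in the control of Jeko, 286 and 192 in Jeko sgRNA 1 and 2, 325 in the control of Rec-1, then 594 and 647 in Rec-1 sgRNA 1 and 2. The Jeko sgRNA libraries were below both controls and the Rec-1 sgRNA libraries above them, with a line difference of 1.40 (SE 0.26, limma adjusted p = 0.0303). Summing its pseudogene row, with under 1 FPKM, left this value at 1.40. RPS25, a small-subunit protein needed for internal initiation on some viral RNAs, was at 3070, 3022, 3063, 2788, 4696 and 4545 FPKM. Only the Rec-1 sgRNA libraries stood apart, at 0.60 above those of Jeko (SE 0.13, limma adjusted p = 0.0416). Of the 81 genes, 7 separated the sgRNA libraries of the lines by at least 1.5-fold, where 2963 of 10322 coding genes did. At 6 of the 7 (85.7%) the Rec-1 control was nearer to the Jeko sgRNA libraries, as it was at 88.1% of the 2963 coding genes. The Jeko control was nearer to them at 5 of the 7 and at 2704 of the 2963. RPL21 and RPL13A, whose rows cannot be read alone, are among the 7.

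**Figure D4:**
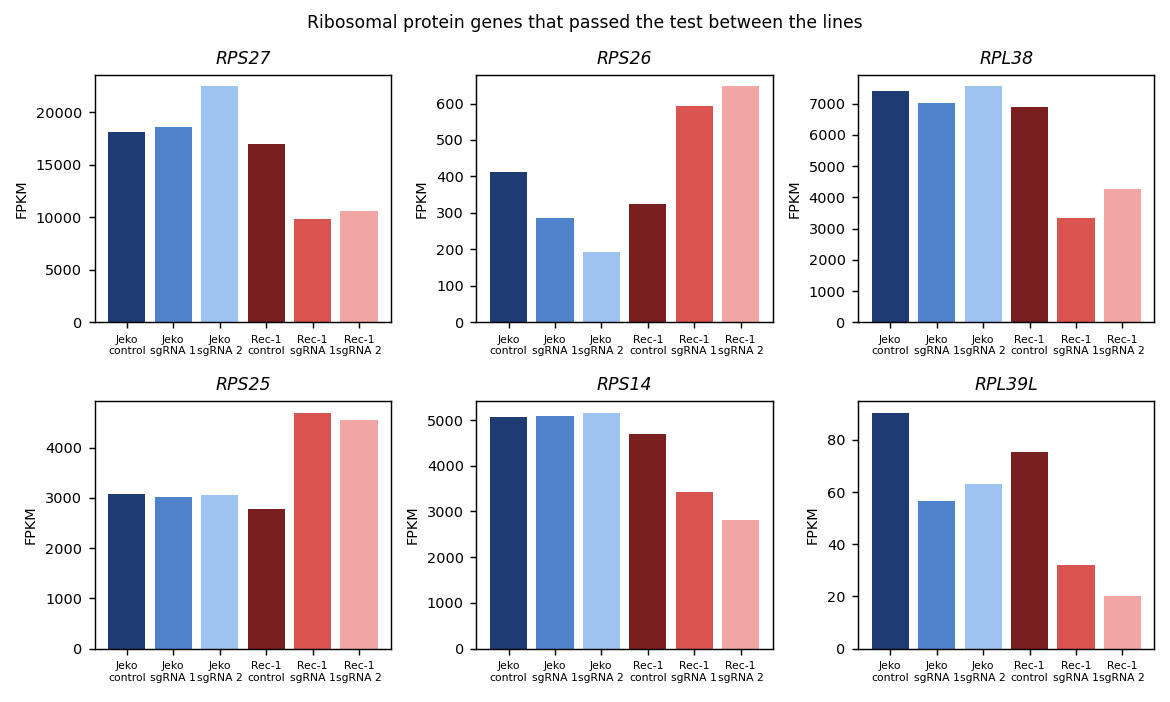
FPKM in each library of the 6 ribosomal protein genes that passed the test between the lines. The bars of the Rec-1 control resemble those of the Jeko control in every panel, and the bars of Rec-1 sgRNA 1 and 2 differ from them, for example 9854 and 10585 against 16927 for RPS27.

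The composition of the group also differed in the Rec-1 sgRNA libraries. RPL41, RPS27 and RPL37A together made up between 14.9% and 16.5% of the group's FPKM in the Jeko libraries and the Rec-1 control, and 11.0% and 11.1% in Rec-1 sgRNA 1 and 2. RPL41 was at 16883 and 20772 FPKM in Jeko sgRNA 1 and 2 and at 12763 and 11542 in Rec-1 sgRNA 1 and 2, a line difference of -0.63 (SE 0.16) that did not pass (limma adjusted p = 0.0566). RPS27L, a p53 target, had a line difference of -1.28 with an SE of 0.56 (limma adjusted p = 0.169), which was -0.51 without Jeko sgRNA 1 and -2.05 without Jeko sgRNA 2 (limma adjusted p = 0.0471). It stood at 51.0 FPKM in the control of Jeko, 113 in Jeko sgRNA 1, 38.0 in Jeko sgRNA 2, 37.2 in the Rec-1 control, 25.7 in Rec-1 sgRNA 1 and 27.0 in Rec-1 sgRNA 2. The guides of Jeko lay on either side of their control.

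The interaction of line and sgRNA compared the differences from the own-line control between the lines as labelled. It rests on 1 control per line, and the Rec-1 control lies with the Jeko libraries. A differing response to the sgRNA therefore cannot be told apart from that library difference. The interaction passed for 0 of 81 genes (limma, adjusted p under 0.05), where 6.94% of all genes tested passed. At an unadjusted p under 0.05 there were 3 of 81, where 21.9% of all genes did so. Those were RPS26 (1.74, limma adjusted p = 0.129), RPS27 (-0.90, limma adjusted p = 0.151) and RPS25 (0.74, limma adjusted p = 0.173). The difference between guide 2 and guide 1 passed for 0 of 81 genes, where 0.0175% of all genes passed. At an unadjusted p under 0.05 there were 0 of 81, where 2.25% of all genes did so.

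Paralog use was described by the FPKM ratio of each paralog to its standard gene. This ratio is one of RNA and does not show which protein ribosomes hold. RPL36AL, a relative of RPL36A with its coding sequence in 1 exon, was by far the most used, at 21.9% of RPL36A in the Jeko control, 29.5% and 23.8% in Jeko sgRNA 1 and 2, 23.8% in the control of Rec-1, then 42.4% and 42.1% in Rec-1 sgRNA 1 and 2. The other paralogs stayed between 0.169% and 13.5% of their standard gene. In all 4 sgRNA libraries RPL36AL stood above its own-line control, by 0.55 on average in log2 ratio (SD 0.34, n = 4 differences; two-sided exact permutation p = 0.111, adjusted over 6 pairs 0.167). It was 0.83 without the Jeko control and 0.28 without the Rec-1 control. The smallest p these 9 arrangements allow is 0.111, so no pair could pass.

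RPL7L1 was at 37.2 FPKM in the control of Jeko, 76.3 and 69.5 in Jeko sgRNA 1 and 2, 38.3 in the control of Rec-1, then 110 and 109 in Rec-1 sgRNA 1 and 2. Its ratio to RPL7 was 1.07% and 1.06% in the controls and between 1.86% and 2.75% in the sgRNA libraries, a log2 difference of 1.04 (SD 0.24, n = 4, exact permutation p = 0.111). RPL26L1, a near copy of RPL26, had the opposite sign in 4 of 4, from 68.5 FPKM in the control of Jeko to 43.4 and 41.8, and from 74.2 in the control of Rec-1 to 18.6 and 37.7. Its ratio differed by -1.31 (SD 0.44, n = 4, exact permutation p = 0.111). RPL39L, known from testis and some cancers, was also lower in 4 of 4, from 90.5 FPKM in the control of Jeko to 56.7 and 63.1, and from 75.5 in the control of Rec-1 to 32.0 and 20.1. The ratio to RPL39 differed by -0.94 (SD 0.58, n = 4, exact permutation p = 0.111), and by -0.60 without the Rec-1 control. Between the lines RPL39L itself fell by 1.21 (SE 0.28, limma adjusted p = 0.0494).

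RPL22L1, which can replace RPL22 in ribosomes and is held down by it, lay on opposite sides of the controls in the lines. It was at 24.9 FPKM in the control of Jeko and 18.9 and 19.4 in Jeko sgRNA 1 and 2, and at 17.6 in the control of Rec-1 and 31.7 and 67.7 in Rec-1 sgRNA 1 and 2. The ratio to RPL22 was 3.97%, 2.52%, 2.84%, 2.86%, 6.14% and 13.5% in that order, while RPL22 itself was lowest in Rec-1 sgRNA 1 and 2, at 516 and 502 FPKM. The average ratio difference of 0.55 (SD 1.38, n = 4, exact permutation p = 0.667) was within the spread. RPS27L to RPS27 differed by 0.21 (SD 0.75, n = 4, exact permutation p = 0.778), and Jeko sgRNA 1 alone was more than 2-fold above its control. In the direct comparison of the lines' sgRNA libraries no pair had an exact permutation p under 0.333, the smallest that 2 against 2 libraries allow.

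**Figure D5:**
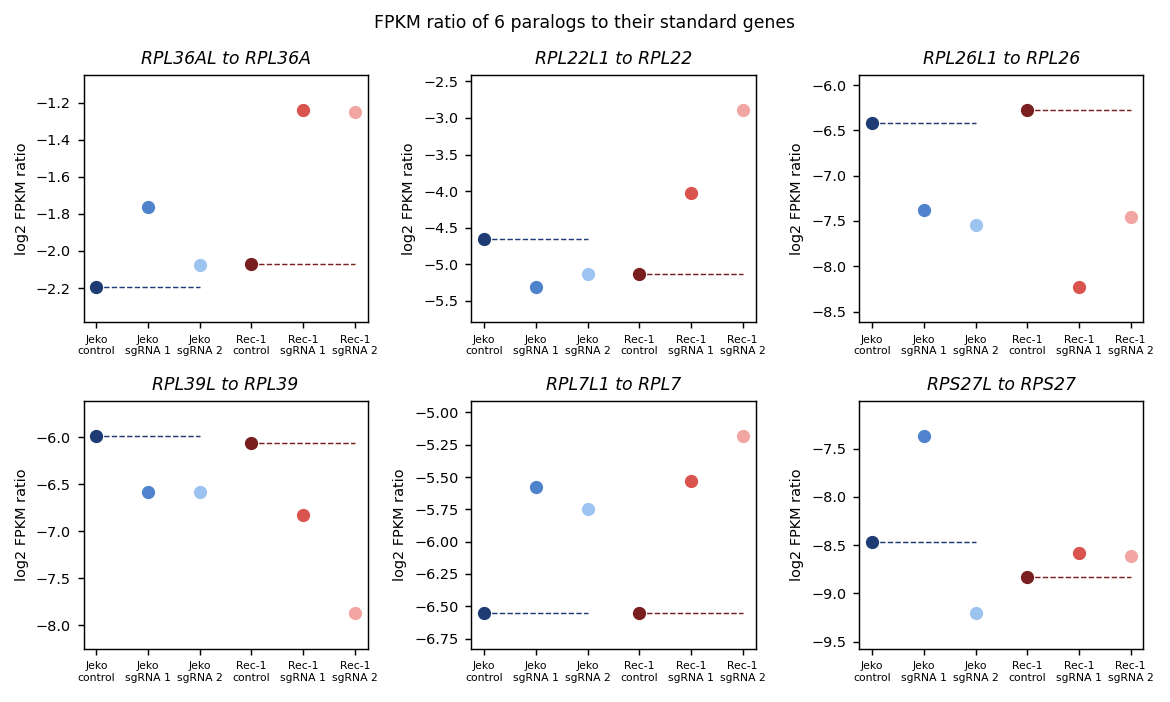
Log2 FPKM ratio of each of the 6 paralogs to its standard gene in each library, with a dashed line at the control of each line. The sgRNA libraries lie above their control in 4 of 4 cases for RPL36AL and RPL7L1 and below it in 4 of 4 for RPL26L1 and RPL39L, and in opposite directions by line for RPL22L1.

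Other features of the genes were compared by medians, as a description. In the 46 standard genes of the large subunit the median difference was -0.02 in Jeko and -0.12 in Rec-1, and in the 29 of the small subunit -0.07 and -0.11. The 29 genes that host an annotated small nucleolar RNA had medians of -0.01 in both lines, and the 46 standard genes without one -0.05 and -0.13. The 45 standard genes with a TOP start had medians of -0.03 and -0.18, and the 16 without -0.05 and -0.15. Between the sgRNA libraries of the lines, the large subunit had a median of -0.21 (34 of 46 lower). The small subunit had -0.07 (17 of 29 lower). It was -0.12 for the host genes and -0.19 for the standard genes without a small nucleolar RNA. With a TOP start the median was -0.23, and without -0.12. Against the Rec-1 control, 15 of 29 host genes and 35 of 46 standard genes without one were lower. These medians and counts were not tested against each other.

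Genes that work with the group were taken from lists of their own. Of the ribosomal proteins outside the naming rule, neither FAU (eS30 as a ubiquitin-like fusion) nor GNB2L1 (RACK1, a scaffold of the small subunit) passed in any of the 4 comparisons. Among 18 translation factors and other genes known for TOP mRNAs, 0 passed for the sgRNA. Of the 18, 8 had an unadjusted p under 0.05 (limma) for the sgRNA, where 21.1% of all genes did. The median of the 18 for the sgRNA was 0.16, with 11 higher. For the line 2 (11.1%) passed, where 25.9% of all genes did, both lower in Rec-1. They were NAP1L1, a histone chaperone (-1.14, limma adjusted p = 0.0177), and the filament protein VIM (-7.73, limma adjusted p = 0.00139). Of the 18 only VIM passed for the interaction. Of 52 ribosome biogenesis factors 0 passed for the sgRNA and 8 (15.4%) for the line, also below the 25.9% of all genes, 2 higher and 6 lower, with a median of -0.46 where that of all genes was -0.03. The lower ones included the rRNA methyltransferase NOP2 (-1.35, limma adjusted p = 0.0414) and the kinase RIOK1 (-1.38, limma adjusted p = 0.0257), and the higher ones SBDS, which helps release eIF6 (1.66, limma adjusted p = 0.0219). The nucleolar proteins NPM1 (0.06), FBL (-0.21) and NCL (-0.94) did not pass.

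MYC, which drives transcription of ribosome genes, was at 302 FPKM in the control of Jeko, 586 and 416 in Jeko sgRNA 1 and 2, 437 in the control of Rec-1, then 196 and 139 in Rec-1 sgRNA 1 and 2. It was lower in the Rec-1 than in the Jeko sgRNA libraries by a log2 difference of -1.58 (SE 0.29, limma adjusted p = 0.0301). The ribosomal protein genes had the median of -0.15 given above. The part of MYC in their values was not tested.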

How the data were processed

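RNA-seq of 6 libraries was deposited by the authors as 1 table of FPKM per gene symbol. Per the submitters' processing notes TopHat and hg19 were used; the program that computed FPKM, its annotation and strand use are not given in the sources used here. FPKM keep no counts, so depth is unknown and no counting interval was made. Values were analysed as log2(FPKM + 1) for 11400 genes whose mean reached 1 FPKM, with limma 3.58.1 in R 4.3.3 (lmFit, eBayes with trend), tested on simulated data, and Benjamini-Hochberg adjustment over all genes at 0.05. The sgRNA contrast had line as covariate, and the line and interaction contrasts came from 4 group means. The guide contrast came from a separate fit with line, sgRNA and guide number as additive terms. Single values had two-sided exact permutation tests. Lengths and biotypes came from GENCODE 44 mapped to GRCh37 (median of consensus coding transcripts), and length was adjusted by loess. Python 3.11.15 was used otherwise. Genes named are the paralog pairs, the 5 highest and lowest, those passing a test, the 3 farthest on each side of the group's median, and fixed ones (such as RPL5, RPS6, RPS19, MYC). The genes and lists were chosen with earlier results of these data known. Adding pseudogene rows to their gene was an alternative chosen after seeing the data. Some genes are not reported here one by one.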

Additional observations from a re-analysis of the deposited data

Results flagged for a closer look

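Opposite directions in the lines were looked for in all 81 genes, with both guides of a line at least 1.2-fold above its control and both guides of the other line at least 1.2-fold below. This held for 2 of 81 genes (2.47%), where it held for 5.72% of all genes tested. RPL22L1 was lower in both Jeko sgRNA libraries (mean log2 difference -0.36) and higher in both Rec-1 ones (1.35), a difference between the lines of 1.71 (SE 0.71, limma adjusted p = 0.270 for the interaction). RPS26 was lower in Jeko (-0.81) and higher in Rec-1 (0.93), a difference of 1.74 (SE 0.45, limma adjusted p = 0.129). Neither interaction passed the threshold. Both use the library labelled Rec-1 control, which lies with the Jeko libraries. They also use the Jeko control, which was closer to the Rec-1 control than to either Jeko sgRNA library.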

How the results depend on the processing

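The count of ribosomal protein genes called between the lines (6) was 3 with a pseudocount of 0.1, 0 with no minimum FPKM, 21 after length adjustment and 2 with guide number as a replicate block, where 24.6%, 16.0%, 33.6% and 23.1% of all genes were called, and 0 to 6 with a library left out (0 or 1 without any sgRNA library). Same-numbered guides deviated together at a correlation of 0.0998 over all genes tested, 0.207 over coding genes and -0.03 over the ribosomal protein genes. With only 2 pairs, and no label stating what a number shares, the numbers were not taken as pairs. Under the block 0 ribosomal protein genes were called for the sgRNA or the interaction, as without it, and over all genes 9 and 428 (28 and 791 without it). The sgRNA count (0) ranged from 0 to 1 with a library left out. Genes past the fold in both guides numbered 3 in Jeko and 11 in Rec-1 at 1.5-fold, where 11.3% and 40.4% of all genes did, and 0 in Jeko with pseudogene rows added. With 1 guide left out they ranged from 2 to 3 in Jeko and from 3 to 5 in Rec-1, where 6.18% to 7.48% and 29.4% to 30.4% of all genes did. The SD of the differences in Jeko (0.330) was 0.300 without the paralogs, 0.301 for genes of at least 100 FPKM and 0.256 with pseudogene rows added. In Rec-1 (0.480) it was 0.349, 0.361 and 0.470 under the same settings and 0.485 with a pseudocount of 0.1. The share difference ranged from -3.46 to 0.87 percentage points with a library left out, and was positive only without the Jeko control. The ratio difference of RPL22L1 ranged from -0.57 to 1.67, negative without the Rec-1 control (-0.57) or Rec-1 sgRNA 2 (-0.01), and that of RPS27L from -0.089 to 0.52, negative without Jeko sgRNA 1. The other 4 pairs kept their sign in every setting run. The median line difference (-0.15) was -0.095 under median-of-ratios scaling. Depth is unknown and could not be weighed.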

Other observations

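Mitochondrial ribosomal proteins, which are encoded by a separate set of nuclear genes, were listed as a contrast. Of 77 found 76 were tested. For the sgRNA 0 passed (limma, adjusted p under 0.05) and 28 had an unadjusted p under 0.05, where 21.1% of all genes did, with a median of -0.45 and 13 genes higher. Between the lines 3 passed (3.95%, where 25.9% of all genes did), 2 higher and 1 lower (MRPL24, MRPL36 and MRPL41), with a median of -0.10.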
